A study of Homo sapiens with 11 samples.

Results

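Pseudogene exon windows are the short stretches of RNA, in the lists of windows enriched with RPS19, whose leading annotation is an exon of a pseudogene. They were taken from each list by that annotation alone, without use of any measured value. There were 104 in the wild-type list of 15402 windows, 347 in the R62W list of 86567 and 360 in the R101H list of 93331. Counted once each, they came to 430 of 122708 windows, and they carried 87 gene names or combinations of overlapping gene names.

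RPS19 is a protein of the small ribosomal subunit, and substitutions in it cause Diamond-Blackfan anemia, a failure of red cell production. Enhanced crosslinking and immunoprecipitation (eCLIP) sequences RNA fragments recovered with a protein from crosslinked cells. All samples were HEK293T, a human embryonic kidney line, and a single line is the only model here. The 11 libraries comprised 3 immunoprecipitates (IPs) of wild-type RPS19 (WT), 3 of RPS19 R62W, 2 of RPS19 R101H and 3 size-matched inputs. Each IP used an antibody to the V5 tag and came from cells that expressed the tagged protein from a transfected plasmid, beside their own RPS19. The inputs came from cells that received no plasmid, so the effects of transfection and of precipitation on IP over input cannot be told apart. Nothing says that replicates were separate cultures, so every p-value below measures the spread between these libraries, which may be technical.

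A pseudogene is a copy of a gene that has lost the ability to make the full protein. Processed pseudogenes arose when an mRNA was copied back into the genome, so they lack introns, while unprocessed ones arose by duplication of genomic DNA and keep the exon and intron layout. Many are transcribed. Chromosome 16 holds several transcribed copies of the 5′ portion of PKD1, which encodes the membrane protein polycystin-1, and those copies lie among duplicated blocks of the NPIP (nuclear pore complex interacting protein) family. The comparisons address which pseudogene transcripts were recovered with wild-type RPS19 and with each anemia substitution. No source used here says how reads that match several copies were assigned, so every value for a named copy is uncertain as to which copy, or parent gene, the reads came from.

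Sequence could be read for 3 of the 430 windows, those that lie wholly within a promoter record of RefSeq (GRCh38.p14). They are shown because all 3 belong to the PKD1 copies that dominate the lists. The runs are written 5′ to 3′ on the strand of the window, and capitals mark the longest unbroken run of G and C. In the 64-base sequence a later run, gcccgc, is equally long and was left in lower case. They lie at chr16:14917540-14917611 on the plus strand and at chr16:18336697-18336760 and chr16:18336851-18336920 on the minus strand, each in an exon of its pseudogene.
PKD1P3, 72 bases: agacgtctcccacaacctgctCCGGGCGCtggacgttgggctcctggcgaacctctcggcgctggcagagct
PKD1P4, 64 bases: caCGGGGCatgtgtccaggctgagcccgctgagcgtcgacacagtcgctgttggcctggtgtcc
PKD1P4, 70 bases: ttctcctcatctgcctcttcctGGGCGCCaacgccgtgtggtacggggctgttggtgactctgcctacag

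The 3 sequences were 68.1%, 67.2% and 61.4% G and C, as deposited for the same windows, and their longest G and C runs were 8, 6 and 7 bases. They held 7, 5 and 4 CG dinucleotides. Enrichment was measured as the log2 odds ratio of IP over input reads in a window, relative to a baseline for windows of like G and C content, for each replicate in which the window passed the authors' test. The first window passed in every library: its log2 odds ratios were 1.96, 2.20 and 3.10 in WT, 2.42, 3.55 and 3.70 in R62W, with 3.41 and 4.44 in R101H. Its R101H values lay above all 3 WT values, while WT and R62W values overlapped. The second passed in 2 WT libraries, at 1.96 and 4.93, in 3 R62W libraries, at 2.03, 2.11 and 5.59, and in both R101H libraries, at 3.72 and 6.23. All 3 groups overlapped there, and the pooled input held only 2, 6 and 1 reads. The third was listed for R62W, at 1.59, 1.85 and 1.97, and for R101H, at 2.61 and 2.88, and was not in the WT list.

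The depth behind a listed window was low. Pseudogene exon windows had a median of 18, 13 and 9.5 pooled input reads and 111, 71 and 60 pooled IP reads in WT, R62W and R101H, over the replicates in which each window passed. Total reads per library are not used here because the tables do not give them. A window left out of a list has no value, so its absence is not a measured 0. In the WT list, pseudogene exon windows made up 0.675% of windows (exact Clopper-Pearson 95% interval 0.552 to 0.818%, counting error only). The share was 0.401% (0.360 to 0.445%) in R62W and 0.386% (0.347 to 0.428%) in R101H. WT became the lowest when each list was shortened to the WT length by q-value: 0.675%, 0.857% and 0.818%. It stayed the highest among windows enriched in every replicate, at 1.45%, 0.548% and 0.386%. The same held with a highest q-value of at most 0.05 (0.937%, 0.699% and 0.487%) and at least 10 input reads (0.957%, 0.439% and 0.344%). As a share of the IP reads in all listed windows they held 0.565%, 0.602% and 0.586%.

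Most of these windows came from duplicated rather than reverse-transcribed copies. Of the 430, 313 (72.8%) belonged to unprocessed pseudogenes, 82 (19.1%) to processed ones, and 35 had a leading gene name that was not a pseudogene (26 lncRNA and 9 protein-coding). Chromosome 16 held 170 of them, chromosome 12 held 72 and chromosome 1 held 53. Windows were 31 to 100 bases long, with a median of 82.5. None overlapped a miRNA hairpin of RefSeq, and there was no window of an RPS19 pseudogene (0 of 430), the copies that plasmid-derived RPS19 reads could match.

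Median enrichment was higher in the duplicated than in the processed copies. Across WT, R62W and R101H the median log2 odds ratio of unprocessed pseudogene windows was 2.00 (88 windows), 2.40 (252) and 2.61 (274). Processed pseudogene windows had medians of 1.36 (14), 1.49 (64) and 1.72 (58). The classes differed in depth: median pooled input was 16, 13 and 9 reads in unprocessed windows and 33.5, 26.5 and 21 in processed ones. The part of depth in the difference between classes was not tested. All pseudogene exon windows together had medians of 1.97, 2.25 and 2.40, beside 2.03, 1.90 and 2.00 for all windows of the same lists. More of them had passed in every replicate: 49.0% against 22.8% of all windows in WT, and 60.8% against 44.5% in R62W. Without the PKD1 copies described below the shares were 26.1% and 43.8%, close to those of all windows. In R101H all windows passed in both libraries, since 2 replicates were the minimum for a listing.

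**Figure D1:**
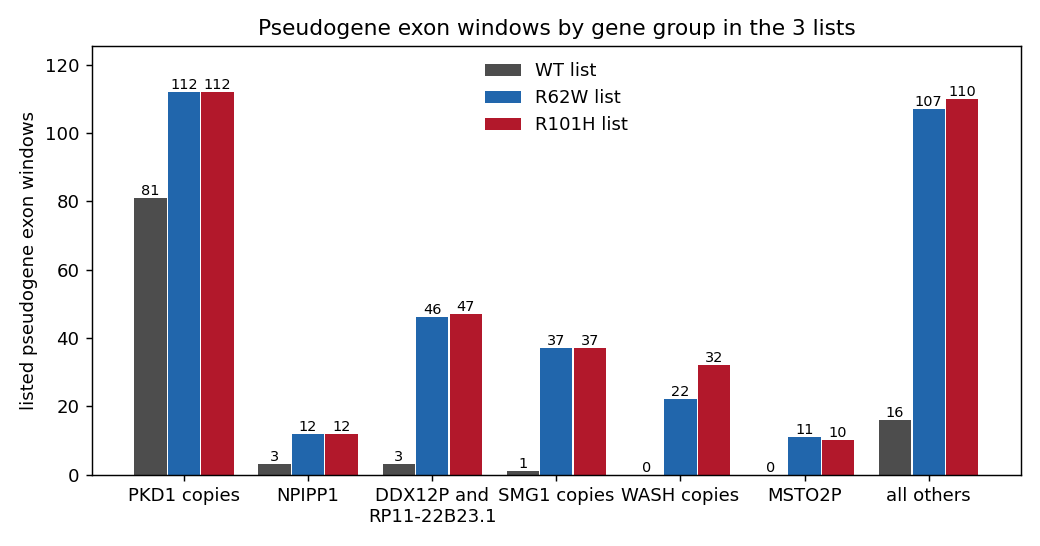
Bars give the number of listed pseudogene exon windows (y axis, from 0) per gene group (x axis) in the WT, R62W and R101H lists. PKD1 copies held 81 of the 104 WT windows and 112 windows in each substitution's list, and the groups to their right had at most 3 WT windows each, apart from the 16 of all other pseudogenes.

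The PKD1 copies made up 81 of the 104 windows (77.9%) for WT, 112 of 347 (32.3%) for R62W and 112 of 360 for R101H. Their median log2 odds ratios were 2.04, 2.98 and 3.35. The remaining pseudogenes had medians of 1.60 over 23 windows, 1.85 over 235 and 2.04 over 248. PKD1P4 led with 43, 61 and 61 windows, followed by PKD1P3 with 27, 33 and 33 and PKD1P1 with 9, 11 and 11. Within each list their medians lay close together: 2.06, 1.99 and 2.10 for WT, 3.13, 2.88 and 2.98 for R62W, and 3.40, 3.41 and 3.35 for R101H. A further 2, 6 and 6 windows carried both PKD1P1 and the overlapping AC138969.4. All 81 PKD1 windows of the WT list were also in both other lists.

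Along PKD1P4 (chromosome 16, minus strand, 18334711 to 18352476) the listed windows spanned 17.8 kb in groups separated by unlisted stretches. The window with the highest WT mean among those with at least 10 pooled input reads lay at 18346230-18346295. Its log2 odds ratios were 2.36, 2.53 and 4.54 in WT, 3.95, 4.21 and 6.03 in R62W, with 4.22 and 6.75 in R101H. One WT value lay within the range of the others' values, so the groups overlapped. In contrast, the window at 18343919-18344012 was narrow in spread: 1.55, 1.58 and 1.62 in WT, 2.65, 3.41 and 3.48 in R62W, with 3.36 and 3.44 in R101H. Every substitution value there lay above every WT value. The same held at 18340515-18340602, which read 2.69, 3.82 and 3.91 in WT, 4.59, 4.76 and 4.98 in R62W, with 5.28 and 5.55 in R101H.

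**Figure D2:**
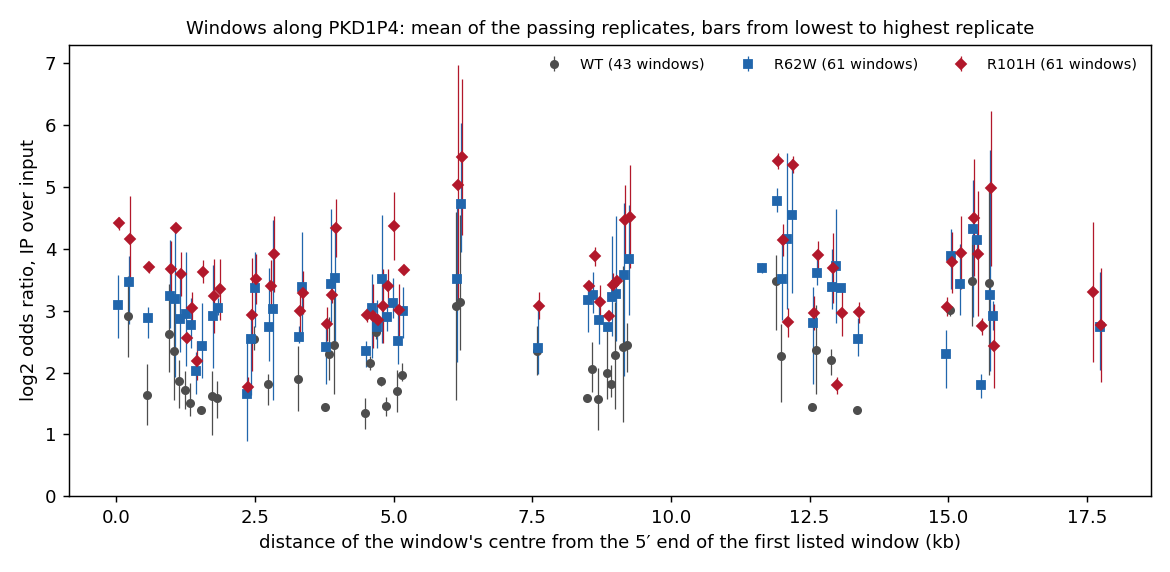
Points give the mean log2 odds ratio (y axis) of each listed PKD1P4 window by its distance in kb from the 5′ end of the first listed window (x axis), with bars from the lowest to the highest passing replicate. The 43 WT windows have means from 1.34 to 3.48, and most of the 61 R62W and 61 R101H points at the same places lie above them.

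Some PKD1 windows matched one another across copies in length and in deposited G and C fraction. There were 11 such sets, holding 24 windows, and 2 of them had 3 members, 1 in each copy. In the first triplet, 72 bases with 25% G and C, the WT means were 3.92 in PKD1P1, 2.24 in PKD1P3 and 2.91 in PKD1P4. The R101H means of that triplet ran the other way, at 3.38, 4.94 and 4.16. In the second triplet, 72 bases with 68.1% G and C, the R62W means were 3.53, 3.22 and 3.10 in the same order, and the PKD1P4 copy was not in the WT list. Pooled input reads in these windows were between 3 and 24, so the copies cannot be ordered at this depth.

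PKD1 itself had far fewer windows. Outside pseudogene exons, 6, 12 and 12 windows named PKD1, with medians of 1.72, 2.84 and 3.02, and 0 of them were coding in any list. They lay between 2097859 and 2100580 on chromosome 16, and of the 6 in WT, 3 were in lncRNA exons and 3 in mRNA exons. Among the NPIP genes beside the copies, NPIPA1 had 45, 70 and 70 windows outside pseudogene exons, with medians of 2.11, 3.17 and 3.41. NPIPP1, an NPIP pseudogene, had 3, 12 and 12 pseudogene exon windows, with medians of 2.36, 3.60 and 4.12. Its window at chr16:15107330-15107383 had the highest R101H mean of all pseudogene exon windows. There the values were 2.22 and 3.41 in WT, 3.53, 4.17 and 5.06 in R62W, with 5.66 and 6.19 in R101H. The 3 groups did not overlap, but the pooled input held 3, 3 and 0 reads, and a log2 odds ratio on 0 input reads depends on how the authors' software handles a 0. Another NPIPP1 window at 15104587-15104672 read 2.14, 2.18 and 2.75 in WT and had means of 3.70 in R62W and 4.29 in R101H.

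Windows listed in both groups of a comparison were tested with limma on the replicate log2 odds ratios, with Benjamini-Hochberg adjustment over all shared windows of any annotation at 0.05. This selection holds only windows that passed in both groups. Only 3 inputs were available, and which input each IP was compared with is not given. In 2672 windows that passed in all 3 WT and all 3 R62W replicates, the summed input was identical in 79.7%. The fits took no account of inputs shared between groups. R62W and WT shared 103 pseudogene exon windows, which was 99.0% of the WT ones and 29.7% of the R62W ones, against 79.6% and 14.2% for all windows. R101H and WT shared all but 3 of the WT windows, or 97.1% of those and 28.1% of the R101H ones, against 72.0% and 11.9%. R62W and R101H shared 278, or 80.1% and 77.2%, against 69.2% and 64.2%.

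PKD1 and NPIPP1 windows had higher log2 odds ratios in R62W than in WT, but 0 of the 103 shared pseudogene exon windows passed limma's adjusted threshold, as for all 12263 windows tested (0%), and their lowest adjusted p was 0.39. At an unadjusted p under 0.05 there were 37, all higher in R62W, which is 35.9% of the 103 beside 10.2% of all shared windows. The R62W mean was above the WT mean in 96 of 103 (93.2%, beside 72.4% of all shared windows). The median difference was 0.87, beside 0.26 over all shared windows. Replicate values did not overlap in 52 windows that were higher (50.5%, beside 24.1% of all shared windows) and in 2 that were lower (1.94%, beside 4.24%). Of the 103, 50 had 2 WT values against 3 R62W values and 49 had 3 of each, beside 6986 and 2672 of all 12263. A library in which a window did not pass has no value, so these comparisons leave it out. After each difference was centred on the median of all shared windows, 86 of 103 were higher and their median was 0.60.

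The 81 PKD1 windows carried most of that shift. Their median difference, R62W minus WT, was 1.01, and 80 of 81 were higher (75 of 81 after centring). The other 22 windows had a median of 0.35 with 16 higher (72.7%, beside 72.4% of all shared windows). After centring this became 0.08 with 11 higher. PKD1P4 had 42 of 43 shared windows higher with a median of 1.08, PKD1P3 had 27 of 27 with 0.84, and PKD1P1 had 9 of 9 with 1.15. The highest difference was at PKD1P1, chr16:16317106-16317189, with 1.88 and 2.46 in the 2 passing WT libraries and 3.71, 4.39 and 5.0 in R62W. The groups did not overlap, and the difference was 2.19 ± 0.46 (SE; limma adjusted p = 0.39). The fifth highest, 1.59 ± 0.30 (limma adjusted p = 0.39), was the narrow PKD1P4 window at 18343919.

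Outside the PKD1 copies, the highest difference, R62W minus WT, was in DDX12P, a copy of the DNA helicase gene DDX11. At chr12:9418673-9418745 the values were 1.24 and 2.19 in WT, 2.44, 2.89 and 4.64 in R62W, with 2.45 and 2.49 in R101H. Both substitutions lay above WT without overlap, with a difference of 1.61 ± 0.72 (limma adjusted p = 0.53) for R62W. The lowest difference was at MTND2P28 on chromosome 1, a nuclear copy of the mitochondrial gene MT-ND2. Its window at 629924-630018 read 1.04, 1.50 and 1.59 in WT, 0.56 and 0.68 in R62W, with 0.65 and 1.59 in R101H. R62W lay below WT there without overlap, with a difference of -0.75 ± 0.31 (limma adjusted p = 0.50), while R101H overlapped with both. That window held 611, 187 and 334 pooled IP reads, summed over its 3, 2 and 2 passing libraries, so these sums are not comparable depths. PPIAP22, a processed copy of the cyclophilin A gene PPIA, held the other window that was lower without overlap: 1.09 and 1.14 in WT against 0.99 in both passing R62W libraries.

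**Figure D3:**
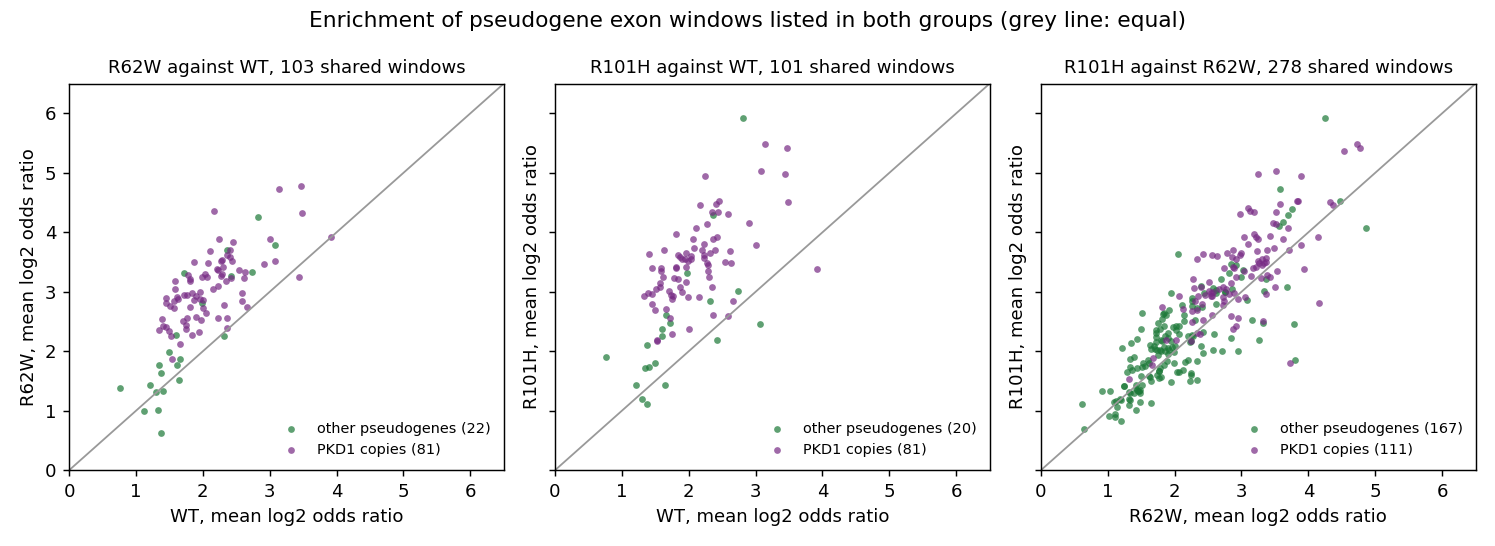
Each point is a pseudogene exon window listed in both groups, with its mean log2 odds ratio in one group on the x axis and in the other on the y axis; purple points are PKD1 copies, green points all other pseudogenes, and the grey line marks equal values. In the panels against WT, 80 of 81 PKD1 points lie above the line, and in the panel of R101H against R62W, 190 of 278 points do.

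The comparison of R101H with WT shares its WT libraries with the one above. None of the shared pseudogene exon windows passed limma's adjusted threshold, as for all 11082 windows tested (0%). At an unadjusted p under 0.05 there were 58, all higher in R101H, or 57.4% beside 21.3% of all shared windows. The R101H mean was higher in 95 of them (94.1%), with a median difference of 1.34 beside 0.60 for all shared windows. Replicate values did not overlap in 74 windows that were higher (73.3%, beside 48.4%) and in 0 that were lower (beside 3.84%). After centring, 84 were higher (83.2%) and the median was 0.74. The PKD1 windows had a median of 1.50 with 80 of 81 higher, and 0.90 with 75 higher after centring. For the other 20 windows the median of 0.46, with 15 higher, turned to -0.14 with 9 higher after centring.

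With the fit restricted to windows that had passed in every replicate of both groups, 22 of 51 pseudogene exon windows rose in R101H over WT at a limma adjusted p under 0.05 (43.1%), beside 18.2% of the 2730 windows tested. Of the 22, 21 were PKD1 copies and 1 was the NPIPP1 window at 15104587. Their differences ran from 1.20 at PKD1P3, chr16:14919031-14919126, to 2.70 at PKD1P3, chr16:14917733-14917804. The latter window read 1.95, 2.30 and 2.47 in WT, 3.45, 3.49 and 4.74 in R62W, with 4.15 and 5.73 in R101H. Both substitutions lay above WT without overlap, and R101H minus WT was 2.70 ± 0.52 (limma adjusted p = 0.046). The PKD1P4 window at 18351859-18351943 read 1.14, 1.63 and 2.13 in WT and 3.62 and 3.78 in R101H, a difference of 2.06 ± 0.39 (limma adjusted p = 0.046), on 43 and 23 pooled input reads. With at least 10 pooled input reads in both lists, 24 of 63 windows rose, all of them PKD1 copies, beside 9.42% of 6945. With differences centred in windows that had passed in every replicate, 0 of the 51 passed; the centred fit was not run for windows with at least 10 input reads.

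The highest difference outside the PKD1 copies was in NPIPP1, where the window at 15107330 gave 3.11 ± 0.54 for R101H minus WT (limma adjusted p = 0.16, on 0 to 3 input reads). The lowest was -0.62 ± 0.74 (limma adjusted p = 0.65) at EIF4A1P10, a processed copy of the translation initiation helicase gene EIF4A1 on chromosome X. Its window at 92113246-92113338 read 2.11 and 4.04 in WT, 2.24, 3.51 and 5.62 in R62W, with 1.96 and 2.95 in R101H, so all groups overlapped. One PKD1 window was lower in R101H, the PKD1P1 copy of the 25% G and C triplet at 16316384-16316455. It read 3.13 and 4.71 in WT and 3.28 and 3.49 in R101H, on 3 and 8 input reads.

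Between R101H and R62W, the median difference over all shared windows was close to that of the 278 shared pseudogene exon windows. None passed limma's adjusted threshold, as for all 59874 tested (0%), and 13 had an unadjusted p under 0.05 (4.68%, beside 1.80%). The R101H mean was higher in 190 of 278 (68.3%, beside 71.8% of all shared windows). The median difference was 0.23, beside 0.21 for all shared windows. After centring, 149 of 278 (53.6%) were higher and the median was 0.02. Replicate values did not overlap in 44 windows that were higher in R101H (15.8%, beside 17.9%) and in 9 that were lower (3.24%, beside 3.59%), shares close to the background. The PKD1 windows had a median of 0.36 over 111, and the others 0.18 over 167. DDX12P lay the other way, with 7 of 20 shared windows higher and a median of -0.07. The lowest single difference was -1.94 ± 1.20 (limma adjusted p = 1.0) at WASH9P, chr1:185284-185350, which read 1.99 and 5.60 in R62W and 1.35 and 2.35 in R101H on 3 and 7 input reads.

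Base composition moved with these groups. Pseudogene exon windows had a median G and C content of 67.3% for WT, 54.4% for R62W and 54.5% for R101H, beside 50%, 50% and 49.2% for all windows. PKD1 copies had medians near 69%, and the WT list held no other pseudogene window at or above 60%. In R62W, PKD1 windows at or above 60% had a median log2 odds ratio of 2.97 over 104 windows, and other pseudogene windows in that range 1.53 over 22. In R101H the medians were 3.33 over 104 and 1.62 over 31. Against WT, pseudogene exon windows of 60 to 80% G and C differed by a median of 1.02 in R62W (69 windows, 68 higher), while the 1954 other shared windows in that range differed by 0.18. For R101H the medians were 1.51 (69 windows, 69 higher) and 0.51 (1569 windows). These ranges are broad, and the windows were not matched for G and C content within them. The part of base composition in the shift was not tested.

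**Figure D4:**
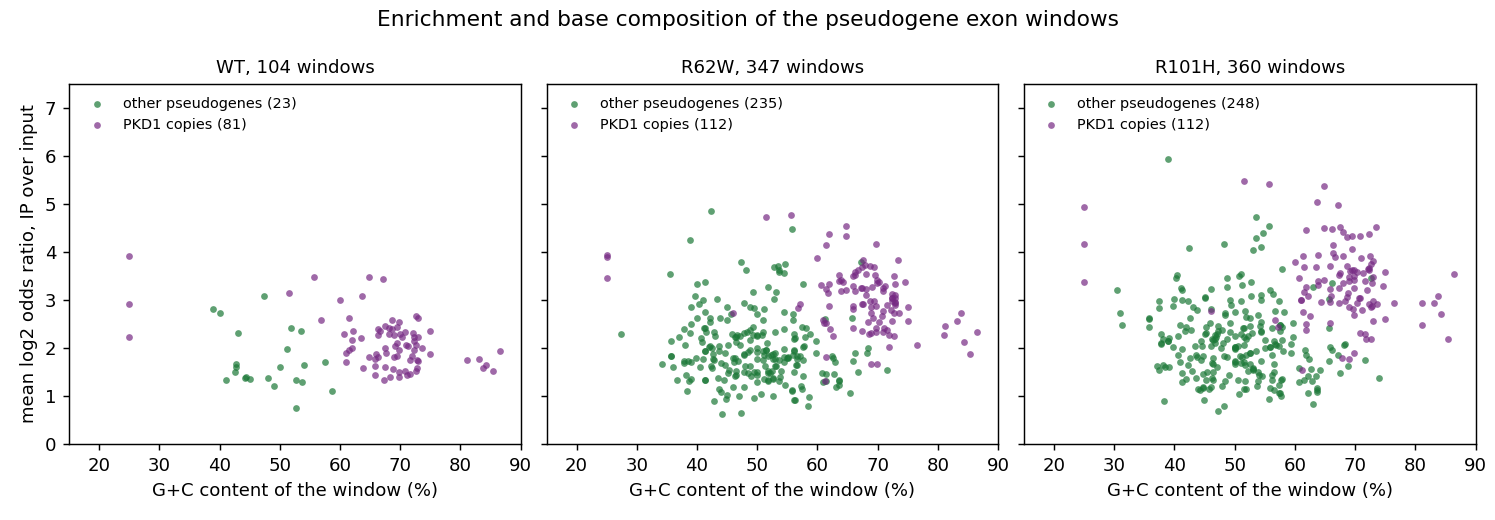
Each point is a pseudogene exon window, by G and C content in percent (x axis) and mean log2 odds ratio (y axis), in the WT, R62W and R101H lists; purple points are PKD1 copies and green points all other pseudogenes. PKD1 copies gather near 69% G and C; in the R62W and R101H panels they lie higher than most other pseudogene windows at or above 60%, which the WT panel does not hold, and the 3 points at 25% are the 72-base windows of PKD1P1, PKD1P3 and PKD1P4.

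Most listed windows were found with the substitutions and not with WT. In all, 177 windows were in both substitution lists but not in WT, 67 were in R62W alone and 82 in R101H alone. Of the WT windows, 2 were shared with R62W alone, 1 was in no other list, and all others were in every list. By gene, 18 names were in every list, 40 in both substitution lists only, 13 in R62W only, 16 in R101H only and 0 in WT only. Since the substitution lists were far longer than the WT list, these counts do not measure a loss in WT.

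On chromosome 12, DDX12P (9418673 to 9443612, minus strand) had 3, 23 and 23 windows in WT, R62W and R101H. RP11-22B23.1 (9288276 to 9313241, plus strand), a transcribed locus within RefSeq's LOC642846, had 0, 23 and 24. Their medians were 1.72, 1.84 and 1.81 for DDX12P, and 1.76 and 1.90 for RP11-22B23.1. DDX11 itself had 6, 65 and 62 windows outside pseudogene exons, with medians of 1.30, 1.68 and 1.86.

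Copies of SMG1, a kinase of nonsense-mediated mRNA decay, had 1, 37 and 37 windows. Those carrying the joint name of SMG1P2 and RP11-345J4.11 had 21 and 19 in the substitution lists, with medians of 2.31 and 2.28, and SMG1P6 had 11 and 12, with medians of 1.87 and 2.17. The single WT window was in SMG1P1, at 1.66 and 1.67. SMG1 had 8, 124 and 130 windows with medians of 1.66, 1.99 and 2.30, beside 1.66, 2.25 and 2.30 over all its copies together. Single copies differed more, with R101H medians of 2.71 over 4 windows in SMG1P5 and 2.54 over 2 in SMG1P1.

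Copies of WASHC1, which encodes an actin-nucleating protein of endosomes, had 0 WT windows, 22 in R62W and 32 in R101H. WASH9P had 7 and 13 and WASH8P 11 and 12, and the medians of the group were 2.12 and 2.16. WASHC1 had 0, 13 and 19. MSTO2P, a copy of the mitochondrial distribution gene MSTO1, had 0, 11 and 10 windows with medians of 1.92 and 2.15, and MSTO1 had 0, 27 and 29. PARGP1, a copy of the poly(ADP-ribose) glycohydrolase gene, had 0, 4 and 6, and NSFP1, a copy of the gene of the vesicle fusion ATPase NSF, had 0, 6 and 5.

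Pseudogenes of the translation machinery were few. Ribosomal protein pseudogenes had 1, 13 and 11 windows, with medians of 0.76, 1.39 and 1.35, below those of all pseudogene exon windows in each list. Their median pooled input was also deeper, at 225, 46 and 26 reads beside 18, 13 and 9.5 for all pseudogene exon windows. The WT one was RPL23AP42 (chr3:161429503-161429597), a copy of the gene of large subunit protein RPL23A. It read 0.61 and 0.91 in WT and had means of 1.39 in R62W and 1.90 in R101H, with 474, 1010 and 1009 pooled IP reads. Those reads are sums over the passing libraries, which need not be the same number in each group. RPL41P2 had the highest ribosomal protein value, 2.44 and 3.26 in R62W and 1.93 and 2.50 in R101H, at chr15:28315978. Translation factor pseudogenes had 2, 8 and 4 windows, most of them in EIF4A1P10 with 2, 6 and 3.

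Among other processed copies, PPIAP22 (chr21:18857779-18858276) had 4, 5 and 4 windows with medians of 1.29, 1.63 and 2.14. Its deepest window, at 18858077-18858176, read 1.01, 1.34 and 1.75 in WT, had a mean of 1.63 in R62W, and read 1.71 and 2.50 in R101H, so WT and R101H overlapped. PPIA had 11, 18 and 19 windows with medians of 1.54, 1.54 and 1.86. HNRNPA1P10, a copy of the gene of the splicing regulator hnRNP A1, had 1, 4 and 3. Its shared window at chr19:11666165-11666260 read 1.30, 1.59 and 1.93 in WT, had a mean of 1.78 in R62W, and read 2.20 and 2.54 in R101H, above WT without overlap. H3P6, a histone H3 pseudogene, had 2, 4 and 1 windows, and its window at chr2:174720072-174720153 was the only one listed for WT alone, at 1.17 and 1.54. Mitochondrial sequence pseudogenes had 1, 2 and 2 windows, chaperone and cyclophilin pseudogenes 4, 6 and 4, RNA-binding protein pseudogenes 1, 4 and 3, and metabolic enzyme pseudogenes 1, 2 and 2. Proteasome and ubiquitin pseudogenes had 0, 2 and 3, cytoskeleton pseudogenes 0, 0 and 1, and snRNA and zinc finger pseudogenes 0 in every list.

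The pseudogene names found in a single substitution list had at most 2 windows each. In R101H alone, RP11-424C20.2 on chromosome 12 had 2 windows, with means of 1.07 on 25 input reads and 3.12 on 2. AC055876.1 read 3.99 and 4.11 on 0 input reads and 17 IP reads, and FAM27B read 2.90 and 4.12 on 1 input read and 19 IP reads. In R62W alone, RP11-408P14.1 on chromosome 4 had 2 windows, at means of 1.62 and 1.55 on 27 and 32 input reads. CCT6P1, a copy of a chaperonin subunit gene, read 1.78 and 4.26 on 4 input reads.

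For 50 of the 87 gene names a parent gene could be read from the symbol and was itself listed in any group. Names whose parent was in no list were left out beforehand. This selection raises the share of parents found in the same list, and no such share is given for other genes. The share therefore does not test whether parents and their copies are listed together. Among those with a window, 11 of 12 for WT and all 43 for each substitution had windows of the parent in the same list, outside pseudogene exons. The median of the pseudogene was above that of the parent for 8, 19 and 21 of them. Names that share a parent were each counted, so these are not separate pairs. In WT, 4 of the names were PKD1 copies set against the same PKD1 median of 1.72, and all 4 lay above it. The median difference, pseudogene minus parent, was 0.29, -0.10 and -0.01. Reads of a parent and reads of its copy cannot be told apart in these tables.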

How the data were processed

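Samples were grouped by the labels into WT, R62W, R101H and input. Per the submitters' processing notes, fastp and STAR were used, with GRCh38. The window caller, tool versions and read assignment among copies are not given in the sources used. For each IP group the authors deposited a single window list made from all replicates. The deposited values of IP and input are, per the file headers, whole-number read counts summed over the replicates in which a window passed, and the deposited log2 values are odds ratios of IP over input, as the lowest, mean and highest of those replicates. An enrichment test by the authors gave the deposited p-values and q-values, and every listed window had a highest q-value of at most 0.2 and passed in at least 2 replicates. The deposited G and C content is a fraction per window. Repeat element tables were not used here.

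Windows whose leading feature was a pseudogene exon were taken. Replicate values were solved from the lowest, mean and highest of the 3 or 2 passing replicates and carry no replicate number. Shared windows were tested with limma 3.58.1 under R 4.3.3 (lmFit, eBayes), checked on simulated data, with Benjamini-Hochberg adjustment over all shared windows at 0.05. Because counts were pooled, no count model was fitted. Gene names came from the files; of 92 symbols, 70 matched RefSeq (GRCh38.p14). Coordinates are 1-based on GRCh38. Alternatives were windows that passed in every replicate, a q-value of at most 0.05, at least 10 input reads, pseudogene exon among all features, lists of equal length, centred differences, a variance trend and 1 value per gene; leaving out the PKD1 copies, and centring together with every-replicate windows, were added after the data were seen.

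Named items were the pseudogenes with most windows per list and common to all lists, the windows with the highest log2 odds ratios above and below 10 input reads, those that passed limma, the extreme differences per comparison, the names with most windows in a single list, and the parent genes by symbol. DDX11, WASHC1, MSTO1 and NPIPA1 were added as relatives from background knowledge. The windows, gene lists and rules were chosen with earlier results of these data known.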

Additional observations from a re-analysis of the deposited data

How the results depend on the processing

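No paired analysis was possible because the deposited replicate values carry no replicate number, and leaving out each replicate in turn was not run for the same reason. Pseudogene exon windows numbered 51 in WT and 211 in R62W when only those enriched in every replicate were counted, 28, 158 and 210 in WT, R62W and R101H with a highest q-value of at most 0.05, and 228 and 180 in R62W and R101H with at least 10 input reads. With a pseudogene exon among all features of a window they numbered 207, 589 and 589, and without PKD1 copies 23 in WT. Their share of the list became 1.45% and 0.548% in WT and R62W (every replicate), 0.937%, 0.699% and 0.487% in WT, R62W and R101H (q-value), 0.957% and 0.344% in WT and R101H (input reads), and 0.857% and 0.818% in R62W and R101H with lists of equal length. The limma calls for R101H minus WT were 0. They were 22 in windows enriched in every replicate, 24 with at least 10 input reads, and 0 when windows enriched in every replicate were also centred. Over all windows tested, 21.3% had an unadjusted limma p under 0.05 in the main fit. The share was 44.5% in windows enriched in every replicate and 33.2% with at least 10 input reads. The median difference over shared windows fell to 0.40 with 1 value per gene and 0.35 without PKD1 copies for R62W minus WT, and to 0.74 (centred), 0.66 (1 value per gene) and 0.46 (without PKD1 copies) for R101H minus WT. No median over the pseudogene exon windows of a comparison changed sign under the alternatives run. The cause of the shifts in these counts, shares and medians was not tested. Low input counts, pooled lists without library totals and near-identical copies limit what single windows show.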

Other observations

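Summed input reads behaved differently in pseudogene exon windows than elsewhere. The WT and R62W lists give input reads for the same windows, and in windows that passed in all 3 replicates of both groups the summed input was nearly the same: 1328 and 1328 reads over 49 pseudogene exon windows, and 160140 and 160201 over 2623 other windows. Window by window, the input counts were identical in 2122 of the 2623 other windows (80.9%) but in 7 of the 49 pseudogene exon windows (14.3%). The median absolute difference was 2 reads in the latter and 0 in the former. The gap held at each input depth: at 20 to 50 WT input reads, 2 of 24 pseudogene exon windows (8.33%) and 727 of 873 others (83.3%) were identical. Among other annotations, the share was 87.2% of 786 coding windows, 88.2% of 712 windows in 3′ UTRs, 43.2% of 227 lncRNA exon windows and 21.1% of 38 small RNA exon windows. Windows without PKD1 copies had 1 identical of 4, and PKD1 copies 6 of 45. The origin of these input differences was not tested.

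In the windows common to all lists, pooled IP reads were 13219 in WT, 27609 in R62W and 27051 in R101H, on 2637, 3088 and 2121 input reads. In the 49 that had passed in every replicate, where both WT and R62W sum over 3 libraries, the IP reads were 7995 and 15973 on 1328 input reads each. Library totals are not used here, so these sums are not scaled for depth.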
